A study of Mus musculus with 12 samples.

Results

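The ribosomal protein genes of the cytosol were followed in mouse cerebral cortex after brain injury. Members were chosen by name and level: protein-coding genes with an Rps, Rpl or Rplp symbol or Rpsa, without the Rps6k kinases, and with a mean of at least 10 TPM, an abundance measure that accounts for transcript length, over 12 libraries. Of 55487 genes in the tables, 83 had such a symbol and 80 passed the level. They encode 32 proteins of the small subunit, 45 of the large subunit and 3 of the P-stalk. The 3 genes left out by level were Rpl10l, at 0 TPM, Rpl39l, at a mean of 0.065 TPM, and Rpl3l, at 0.396 TPM, all paralogs best known from testis or muscle. The 3 lowest genes kept were Rpl7l1 at 26.8, Rps27l at 32.3 and Rpl22 at 147 TPM, so the level minimum fell in a wide gap.

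RNA came from cortex 2 hr after CCI (controlled cortical impact), where a driven piston hits the brain surface to model head trauma. The cKO groups carried CX3CR1cre-er/+ with STING fl/fl, and the wt groups, Cre carriers by their labels, CX3CR1cre-er/+ alone. Every mouse thus had a Cre allele in Cx3cr1, a gene active in microglia and monocytes, and every mouse received CCI. The series description writes the floxed animals as CX3CR1cre/+, and neither source mentions tamoxifen. For each genotype the cortex of the struck side (ipsilateral) and of the other side (contralateral) was sequenced in 3 libraries, which gives 4 groups: cKO ipsilateral, cKO contralateral, wt ipsilateral and wt contralateral. No sham-operated mice were analysed here, so the effect of surgery cannot be told apart from that of the impact. Whether each library is a different animal is not stated in the labels, and p-values refer only to the spread among libraries.

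Every cell builds its ribosomes from ribosomal RNA and one copy of nearly every ribosomal protein, so these genes are held at like levels and are usually seen to vary together. Their mRNAs typically begin with a C followed by a run of pyrimidines, the 5′ terminal oligopyrimidine (TOP) tract, through which the mTOR pathway controls their translation. In cortex the ribosomes of neurons, glia and vessels all contribute, and in bulk tissue fewer cells of a type and less RNA per cell cannot be told apart.

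Promoter windows were taken from RefSeq (GRCm38.p6), which listed 60 of the 80 members. Only the first listed start of each gene was used, and 9 members had several starts. The 80 bases from 60 before to 20 after the annotated start are shown for the members with the largest and the smallest changes between sides that were in that table, and for the Rpl22 pair of paralogs. Capitals mark a C followed by at least 4 pyrimidines that begins within 10 bases of the start, and the ETS factor motif CCGGAAG.
Rps27, small subunit, chr3:90213629-90213708, minus strand: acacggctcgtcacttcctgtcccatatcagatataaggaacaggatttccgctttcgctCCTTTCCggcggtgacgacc
Rpl38, large subunit, chr11:114668520-114668599, plus strand: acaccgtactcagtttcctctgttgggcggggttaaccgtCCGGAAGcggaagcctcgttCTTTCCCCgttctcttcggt
Rps28, small subunit, chr17:33824543-33824622, minus strand: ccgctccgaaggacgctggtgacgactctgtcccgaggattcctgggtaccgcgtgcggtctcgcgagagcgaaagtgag
Rpl41, large subunit, chr10:128549149-128549228, minus strand: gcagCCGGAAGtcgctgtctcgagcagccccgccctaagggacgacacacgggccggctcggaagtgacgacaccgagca
Rps15a, small subunit, chr7:118116128-118116207, minus strand: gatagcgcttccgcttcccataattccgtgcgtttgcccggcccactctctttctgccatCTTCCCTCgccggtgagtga
Rpl6, large subunit, chr5:121204441-121204520, plus strand: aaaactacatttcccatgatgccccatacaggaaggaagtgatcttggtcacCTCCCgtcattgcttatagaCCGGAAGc
Rpl7l1, paralog of Rpl7, chr17:46782637-46782716, minus strand: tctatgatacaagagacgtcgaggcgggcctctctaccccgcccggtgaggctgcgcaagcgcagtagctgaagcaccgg
Rpl22, large subunit, chr4:152325666-152325745, plus strand: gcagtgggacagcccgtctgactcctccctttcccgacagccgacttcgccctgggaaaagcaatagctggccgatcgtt
Rpl22l1, paralog of Rpl22, chr3:28805448-28805527, plus strand: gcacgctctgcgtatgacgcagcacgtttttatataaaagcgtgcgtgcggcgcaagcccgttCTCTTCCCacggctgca

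Within 10 bases of the start, the only place it was scored, the tract began in 55.0% of member promoters, against 30.8% of the 27025 promoters in the table. The other motifs were sought in the whole windows, from 250 bases before to 50 after the start. CCGGAAG, on either strand, was in 40.0% of member promoters and 9.12% of all. CCCGCCC (SP1) was in 48.3% and 25.8%, AAGATGG (YY1) in 15% and 6.48%, and TATAAA in 10% and 14.2%. Matches of different motifs may overlap, and a match describes only these letters in these windows. Rps27 and Rps15a each carried the tract exactly at the annotated start, yet stood near opposite ends of the changes described below.

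Ribosomal protein mRNAs were among the abundant transcripts of cortex. The highest means over all libraries were those of Rplp1 (1600 TPM), an acidic protein of the P-stalk that recruits elongation factors, the small-subunit genes Rps29 (1494), Rps15 (1450) and Rps27 (1288), and the large-subunit gene Rpl13a (1158). Of the 80, 8 exceeded 1000 TPM, 70 lay between 100 and 1000, and only the paralogs Rpl7l1 and Rps27l lay under 100, with a median over members of 481.6 TPM. The lowest 5 were completed by Rpl22, Rpl35 (192 TPM) and Rpl22l1 (208 TPM). Summed TPM of small-subunit over large-subunit genes was 0.772 ± 0.018 in cKO ipsilateral, 0.761 ± 0.008 in cKO contralateral, 0.778 ± 0.012 in wt ipsilateral and 0.776 ± 0.015 in wt contralateral cortex (SD, n = 3 each), and the ranges of all 4 groups overlapped.

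**Figure D1:**
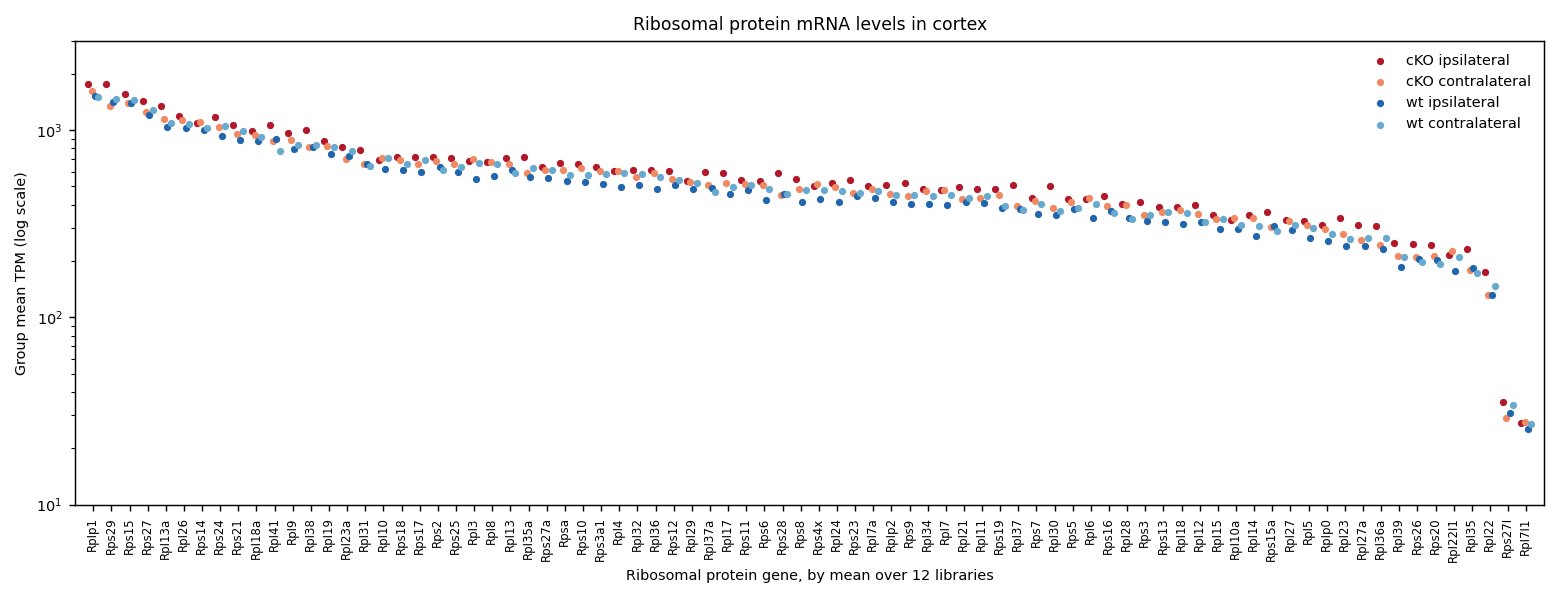
Group mean TPM (log axis) of the 80 ribosomal protein genes, ordered by their mean over 12 libraries; each gene has 4 points, one per group (n = 3 libraries each). Levels fall from 1600 TPM for Rplp1 to 26.8 TPM for Rpl7l1, and only Rps27l and Rpl7l1 lie below 100 TPM.

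Together the 80 genes took 4.84, 4.30 and 5.63% of TPM in cKO ipsilateral libraries 1 to 3, and 4.42, 4.40 and 4.57% in cKO contralateral libraries 1 to 3. In wt cortex they took 3.99, 4.10 and 4.15% in ipsilateral libraries 1 to 3, and 4.35, 4.90 and 3.798% in contralateral libraries 1 to 3. Single libraries set the spread: the highest share was in cKO ipsilateral library 3 and the lowest in wt contralateral library 3, and the 2 sides overlapped in both genotypes. TPM shares depend on what else is in a library. Bc1, a short neuronal noncoding RNA, held 10548 TPM in cKO ipsilateral library 3 and 83028 to 167036 TPM in the other libraries. With Bc1 and the mitochondrially encoded genes left out of the total, the shares were 6.27 ± 0.234% in cKO ipsilateral, 5.69 ± 0.185% in cKO contralateral, 5.68 ± 0.425% in wt ipsilateral and 5.58 ± 0.680% in wt contralateral cortex (SD, n = 3 each). The share of all TPM was the planned one, and this share was an addition. On the added share the cKO sides did not overlap, at 6.005 to 6.454% ipsilateral against 5.491 to 5.854% contralateral. The wt sides still did, at 5.19 to 5.969% against 4.819 to 6.119%.

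From here on, a level of 1 gene is compared between libraries in CPM, counts scaled to library size, and changes are log2 fold changes with their SE; the adjusted p comes from the quasi-likelihood test of edgeR, with the Benjamini-Hochberg method applied over 16836 tested genes. All 80 members passed the filter on low counts, and the smallest count of a member in any library was 58. Library totals, in units of 1000000 counts, ran from 20.8 to 33.6 in 11 libraries and stood at 7.96 in cKO ipsilateral library 3. The targeted gene Tmem173 (STING) averaged 1.58 ± 0.756 CPM in cKO and 2.91 ± 0.699 CPM in wt ipsilateral cortex, and 1.24 ± 0.635 CPM in cKO and 2.76 ± 0.368 CPM in wt contralateral cortex (SD, n = 3 each). The genotypes overlapped in ipsilateral cortex, where cKO library 2 had 2.443 CPM and wt library 1 had 2.335 CPM, and did not in contralateral cortex. No marker of neurons, astrocytes, oligodendrocytes or microglia was at 0 in any library.

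The members moved together from library to library, in part against their group. In cKO ipsilateral libraries 1 to 3, 78, 76 and 75 of the 80 members lay above their own mean over all libraries, whereas 14, 1 and 44 did in cKO contralateral libraries 1 to 3. In wt ipsilateral libraries 1 to 3 the counts were 0, 63 and 73, and in wt contralateral libraries 1 to 3 they were 35, 53 and 0. The cKO sides therefore stood apart for most members, while in wt cortex library 1 of the ipsilateral and library 3 of the contralateral side had no member above its mean. The median deviation of the members was 0.23 (log2) in cKO ipsilateral library 3 and −0.32 in wt contralateral library 3, the 2 extremes. Over the 12 libraries, the median correlation of log2 CPM between pairs of members was 0.818, and it was 0.804 after group means were removed, so the members also moved together among libraries of 1 group. These are descriptions, and all members within a library share its depth and scaling.

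**Figure D2:**
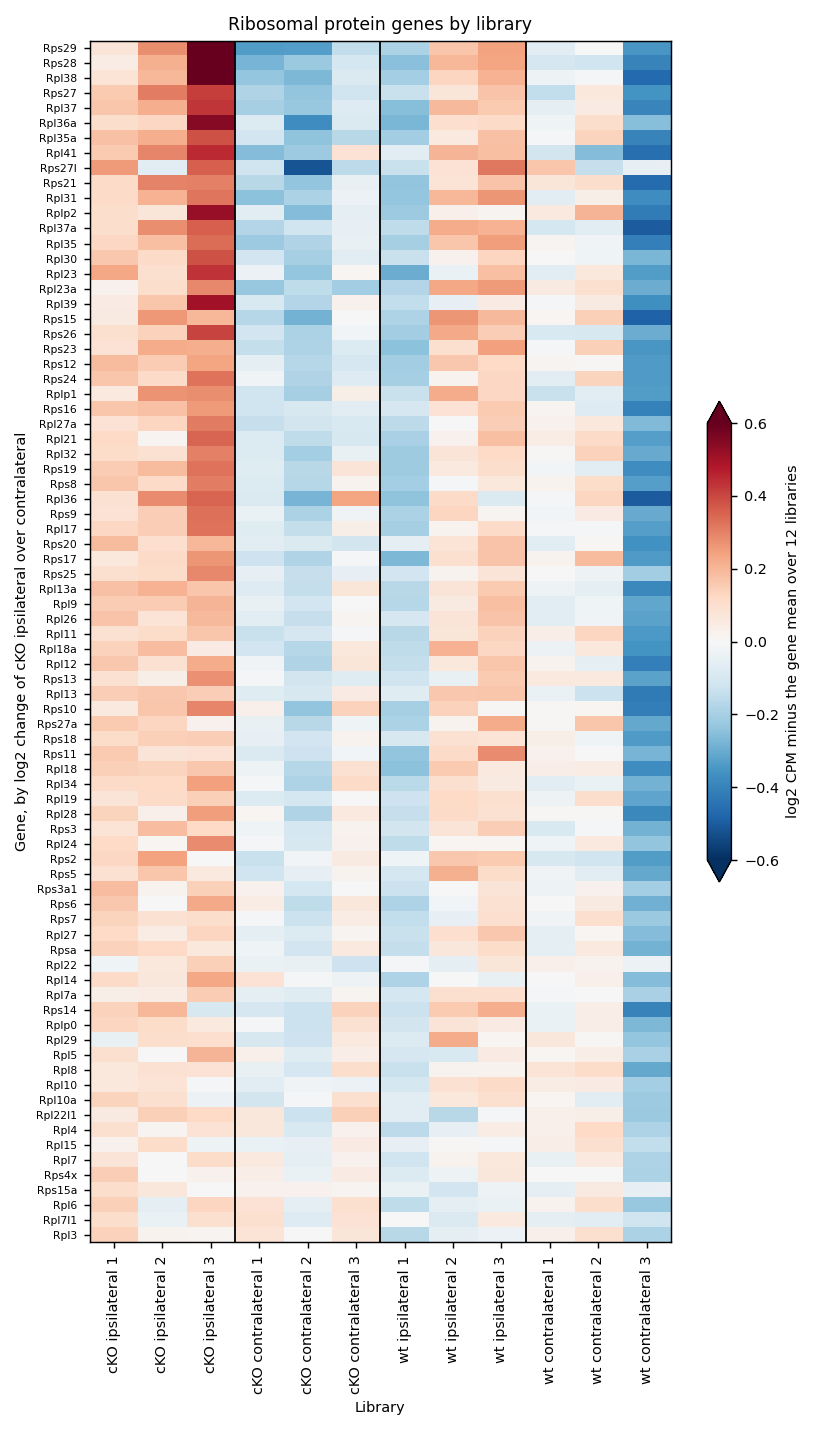
Log2 CPM minus each gene's mean over 12 libraries (colour, cut at ±0.6) for the 80 members (rows, by the change in cKO cortex) in the 12 libraries (columns, black lines between groups). The 3 cKO ipsilateral libraries are above the mean for 75 to 78 members, while wt ipsilateral library 1 and wt contralateral library 3 are below it for all 80.

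Members differed in how closely they followed the others. Rpl17, a large-subunit protein near the exit tunnel, had the highest correlation with the mean of the other members, 0.979. The lowest were 0.261 for Rps15a, 0.506 for Rpl7l1, 0.544 for Rpl22 and 0.567 for Rpl3. Within groups, log2 CPM varied most for Rps28 (SD 0.256), Rpl36 (0.239), Rpl38 (0.237) and Rps15 (0.224). It varied least for Rps15a (0.046), Rpl22 (0.061), Rpl7l1 (0.075) and Rpl15 (0.079), beside a median of 0.144 over members and 0.163 over all tested genes. Of 8433 other genes with a mean of at least 10 TPM, genes most like the members' mean over the 12 libraries included 2310033P09Rik (correlation 0.956), Fau (0.953), the small nucleolar RNA host gene Gas5 (0.936) and Ndufa3 (0.934), a subunit of respiratory complex I. Fau encodes a ribosomal protein fused to a ubiquitin-like protein, and lies outside the symbols used here.

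Between the sides of cKO cortex, 2 members rose on the injured side and 0 fell, where 2.56% of all tested genes rose and 0.178% fell. Both were small-subunit genes with short mRNAs that encode zinc-binding proteins. Rps29 had 160.9, 185 and 240.0 CPM in cKO ipsilateral libraries 1 to 3, against 121, 122 and 138 CPM in cKO contralateral libraries 1 to 3. All 3 ipsilateral libraries were above all 3 contralateral ones, with library 3 highest on each side, and the log2 change was 0.62 ± 0.14 (adjusted p = 0.0249). Rps27 had 108, 120.1 and 130 CPM in the ipsilateral libraries, against 85.7, 82.4 and 89.3 CPM in the contralateral ones. The 2 sides did not overlap, and the change was 0.47 ± 0.11 (adjusted p = 0.0222).

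Both calls were lost when cKO ipsilateral library 2 or 3, or cKO contralateral library 1 or 2, was left out. Without ipsilateral library 3 the change of Rps29 was 0.45 (adjusted p = 0.106) and that of Rps27 0.41 (adjusted p = 0.0937). On log2(TPM + 1), where limma was the test, the changes were 0.38 for Rps29 (adjusted p = 0.478) and 0.19 for Rps27 (adjusted p = 0.735).

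The remaining members mostly leaned the same way without passing the test, and how many passed depended on the settings. DESeq2 called 9 (3.3% of all tested genes higher), edgeR on the 2 cKO groups alone 17 (2.78%), edgeR without the filter on low counts 31 (2.91%), with GC and length trends removed 6 (3.22%) and without wt contralateral library 3 10 (3.04%), and limma on log2(TPM + 1) 0 (1.16%). All 80 had a log2 change above 0 in cKO cortex, as did 48.6% of all tested genes, and the median was 0.20 over members and −0.01 over all tested genes. With GC and length trends removed the median over members was 0.13. For 55 members every ipsilateral library was above every contralateral one (10.8% of all tested genes), and for 0 was it below (11.1%). At an unadjusted p under 0.05 there were 37 members, all higher, beside 8.81% of all tested genes higher. Since the members move together within a library, these counts hold far fewer independent observations than 80.

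The largest changes after Rps29 belonged to Rps28, at 0.56 ± 0.17 (adjusted p = 0.105), and Rpl38, at 0.52 ± 0.15 (adjusted p = 0.102). Rps28 had 48.7, 54.8 and 81.7 CPM in cKO ipsilateral and 39.0, 40.4 and 43.9 CPM in cKO contralateral libraries. The sides did not overlap, and ipsilateral library 3 was far above the other two. Rpl37 (0.44), Rpl36a (0.43), Rpl35a (0.43), Rpl41 (0.42) and Rps27l (0.42), the paralog of Rps27 induced by p53, followed, none past the test. With the replicate number as a block within genotype, Rpl41 was called beside Rps27 and Rps29.

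At the other end, the 8 smallest changes were 0.01 ± 0.07 for Rpl3, 0.02 ± 0.08 for Rpl7l1, 0.03 ± 0.09 for Rpl6, 0.04 ± 0.06 for Rps15a, 0.04 ± 0.07 for Rps4x, 0.05 ± 0.07 for Rpl7, 0.05 ± 0.07 for Rpl15 and 0.07 ± 0.08 for Rpl4. Rpl3, which lines the peptidyl transferase centre, had 533, 489.8 and 489 CPM in cKO ipsilateral against 511, 482 and 508 CPM in cKO contralateral libraries. The sides overlapped, with the highest library ipsilateral and the lowest contralateral. Of the P-stalk, the 2 acidic proteins gave 0.29 ± 0.10 for Rplp1 (adjusted p = 0.187) and 0.36 ± 0.15 for Rplp2 (adjusted p = 0.265), and Rplp0, their anchor, 0.11 ± 0.09 (adjusted p = 0.594). Rpsa, also known as the laminin receptor, gave 0.13 ± 0.09, and Rps27a, made as a fusion with ubiquitin, 0.19 ± 0.11, neither past the test.

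**Figure D3:**
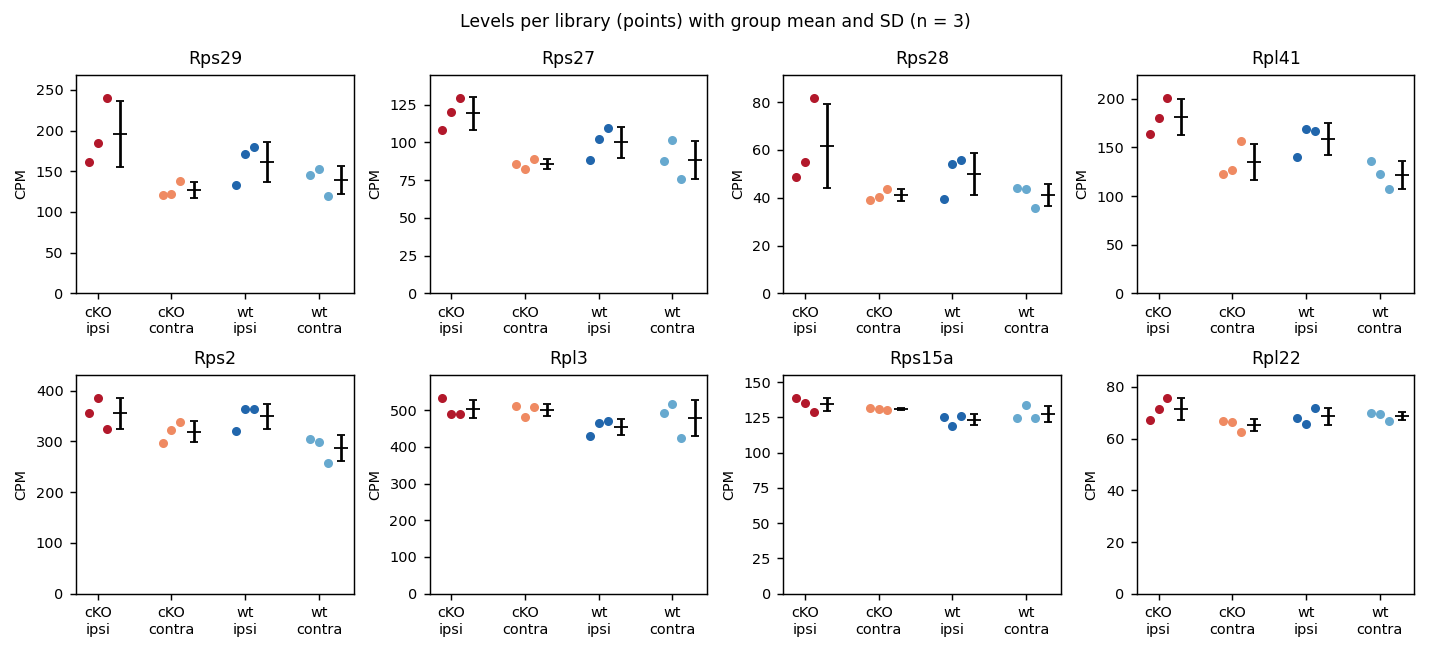
CPM (axis from 0) per library for 8 members, with the mean and SD (n = 3 libraries) beside the points of each group. Rps29 and Rps27 are higher in all 3 cKO ipsilateral than in all 3 cKO contralateral libraries; Rpl41 and Rps2 are higher in all 3 wt ipsilateral than in all 3 wt contralateral libraries; Rpl3 and Rps15a overlap between the sides of both genotypes.

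In cKO cortex the change of a member was related to the annotated length of its mRNA. Across the 80 members, the correlation of the log2 change with log2 transcript length was −0.537 (Spearman −0.504), and the median change was 0.26 in the shorter and 0.18 in the longer 40. In wt cortex the correlation was −0.335, with medians of 0.13 and 0.07. Genes are not independent replicates, and these correlations carry no test. The median length was 882 bases over members and 2894 over all tested genes, each gene taken by its principal transcript. That length need not be that of the expressed mRNA. In cKO ipsilateral cortex Rps15a, at 5179 bases, had 134.3 CPM beside 366.9 TPM, fewer counts per TPM than the shorter Rpl4. Rpl4, at 1538 bases, had 509.8 CPM beside 604.3 TPM. The effect of such lengths on the correlations and on the removal of length trends was not tested.

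On the TPM scale the relation to length was smaller. TPM divides the count by a length that RSEM estimates for each library, and there the correlation was −0.114 in cKO and −0.001 in wt cortex. The median log2(TPM + 1) change in cKO cortex was 0.11 in the shorter and 0.11 in the longer 40. The count that a member of under 500 bases received per unit of TPM, relative to members of 1000 bases or more, stood at 0.24 (log2) in cKO ipsilateral library 3 and between −0.08 and 0.05 in the other 11 libraries. Library 3 thus counted short mRNAs more heavily than the others did. The part of this in the called changes was not tested, and with GC content and length trends removed, Rps29 changed by 0.40 (adjusted p = 0.0130) and Rps27 by 0.23 (adjusted p = 0.0439).

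**Figure D4:**
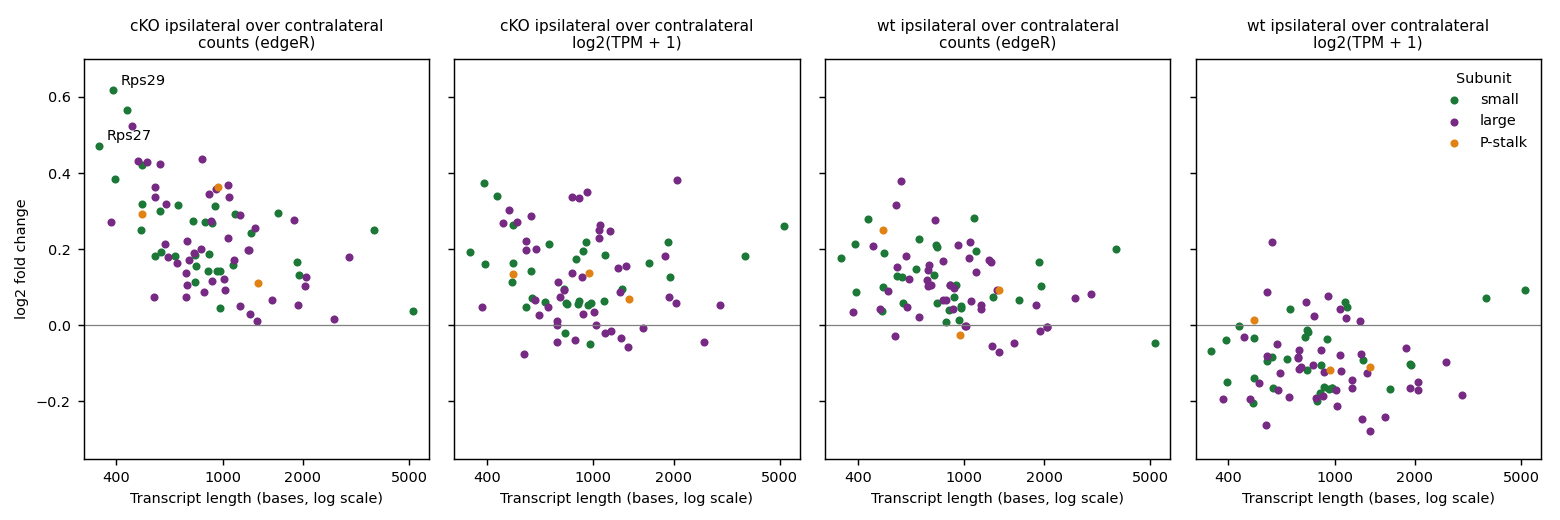
Log2 fold change of ipsilateral over contralateral cortex against transcript length (log axis) for the 80 members, in cKO (left pair of panels) and wt cortex (right pair), from counts by edgeR and from group means of log2(TPM + 1). In cKO cortex the correlation is −0.537 on counts and −0.114 on TPM, and in wt cortex all but 14 members lie below 0 on TPM.

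Between the sides of wt cortex no member was called by edgeR, where 2.73% of all tested genes rose and 0.184% fell. At an unadjusted p under 0.05 there were 7 members, all higher (8.97% of all tested genes higher), and DESeq2 called 2, Rpl41 and Rps2 (3.64%). Without the filter on low counts edgeR called 5 (2.89%), and with GC and length trends removed 3 (3.74%). The median change was 0.10 over members and −0.01 over all tested genes, with 69 members above 0 (48.8% of all tested genes). With libraries scaled by their totals the median was 0.05, beside −0.06 over all tested genes. It moved with single libraries. Leaving out library 3 of the contralateral side gave 0.01 and library 2 of that side 0.17, while leaving out library 1 of the ipsilateral side gave 0.18 and library 3 of that side 0.06. For 2 members, Rpl41 and Rps2, the sides did not overlap (10.5% of all tested genes were so higher).

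Rpl41, a very short peptide at the subunit interface, had 140.2, 169 and 167 CPM in wt ipsilateral against 136.2, 122.7 and 107.3 CPM in wt contralateral libraries. The lowest ipsilateral library was just above the highest contralateral one, and the change was 0.38 ± 0.11 (adjusted p = 0.102). Rps2, a core protein of the small subunit, had 320.2, 364 and 363 CPM in wt ipsilateral against 304, 299.5 and 258 CPM in wt contralateral libraries. The sides were apart, by 0.28 ± 0.09 (adjusted p = 0.107), and in cKO cortex, at 0.16 ± 0.09, they overlapped. Rpl37a gave 0.32 ± 0.12 (adjusted p = 0.206), and the lowest values were −0.07 ± 0.07 for Rpl3, −0.05 ± 0.09 for Rpl6 and −0.05 ± 0.08 for Rpl4.

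The scale changed the direction in wt cortex. On log2(TPM + 1), 14 of 80 members lay above 0, and their median was −0.10, beside −0.18 over all genes with a mean of at least 1 TPM. Relative to that shift the members stood 0.08 higher, but 0.06 lower relative to all genes above 0 TPM. In cKO cortex the TPM median was 0.11, and 68 members lay above 0. Mitochondrially encoded RNAs of every kind, not mRNAs alone, enter the TPM total, as does Bc1. Bc1 averaged 135200 ± 45390 TPM in wt ipsilateral and 120900 ± 40790 TPM in wt contralateral libraries. In cKO libraries it averaged 96990 ± 75050 TPM ipsilateral and 121200 ± 23940 TPM contralateral (SD, n = 3 each). Of counts, which is not their share of TPM, the mitochondrially encoded RNAs took 7.68 ± 0.673% in wt ipsilateral and 4.76 ± 0.601% in wt contralateral libraries. In cKO libraries they took 6.20 ± 1.19% ipsilateral and 4.45 ± 0.279% contralateral (SD, n = 3 each). The part of these RNAs and of Bc1 in the TPM direction was not tested.

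In ipsilateral cortex, cKO against wt, edgeR called 0 members and 0.0% of all tested genes in either direction. DESeq2 and limma-voom also called 0 members, and 8 members were higher at an unadjusted p under 0.05 (2.83% of all tested genes). The median was 0.14 over members and 0.00 over all tested genes, with 78 members above 0 (50.4% of all tested genes), and for 16 members every cKO library was above every wt library (5.6% of all tested genes). Without wt ipsilateral library 1 the median was 0.06. On log2(TPM + 1) it was 0.27, with all 80 members above 0, beside 0.16 over all genes with a mean of at least 1 TPM. The 3 highest were Rpl23 at 0.30 ± 0.13 (adjusted p = 0.818), Rpl36 at 0.30 ± 0.16 (adjusted p = 0.866) and Rplp2 at 0.29 ± 0.14 (adjusted p = 0.866).

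Rpl23, a large-subunit protein that can also bind the p53 regulator Mdm2, had 156, 142 and 180 CPM in cKO ipsilateral against 108, 129 and 151 CPM in wt ipsilateral libraries. The groups overlapped, since cKO library 2 was below wt library 3. Rplp2 had 106, 104 and 142 CPM in cKO ipsilateral against 84.8, 100.5 and 99.7 CPM in wt ipsilateral libraries. These groups did not overlap, with cKO library 3 far above. The lowest values were 0.00 for Rps14 and Rpl29 and 0.01 ± 0.08 for Rpl10, the protein added last to the large subunit.

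In contralateral cortex, cKO against wt, edgeR, DESeq2 and limma-voom called 0 members, 0 passed an unadjusted p under 0.05 (1.55% of all tested genes higher), and edgeR called 0.0% of all tested genes in either direction. The median was 0.03 over members and 0.00 over all tested genes, with 50 members above 0 (49.7% of all tested genes), and it was −0.07 without wt contralateral library 3 and −0.01 without cKO contralateral library 3. On log2(TPM + 1) it was 0.05, with 63 members above 0. The highest were Rpl41 (0.15 ± 0.11), Rps2 (0.15 ± 0.09) and Rpl13 (0.15 ± 0.09), and the lowest Rps27l (−0.25 ± 0.17), Rpl23a (−0.16 ± 0.12) and Rps29 (−0.14 ± 0.14). For Rpl22 alone were all cKO libraries below all wt libraries (3.6% of all tested genes), and for 0 members above them (3.4%). It had 66.7, 66.5 and 62.8 CPM in cKO contralateral against 69.9, 69.6 and 66.9 CPM in wt contralateral libraries, a gap between groups smaller than the spread within them.

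The difference between the injury responses of the genotypes did not pass the test for any member: edgeR and DESeq2 called 0, and 0 had an unadjusted p under 0.05 (1.17% of all tested genes did in the higher direction). Its median was 0.10 over members and 0.00 over all tested genes, with 72 members above 0 (49.9% of all tested genes), and with 1 library left out it ran from 0.04, without wt ipsilateral library 1 or wt contralateral library 2, to 0.20, without wt contralateral library 3. With GC and length trends removed it was 0.06, and on log2(TPM + 1) it was 0.22, beside 0.14 over all genes with a mean of at least 1 TPM. The largest values were 0.41 ± 0.20 for Rps29, 0.39 ± 0.20 for Rplp2 and 0.39 ± 0.19 for Rpl36a, and the smallest −0.12 ± 0.12 for Rps2, −0.10 ± 0.17 for Rps14 and −0.08 ± 0.13 for Rpl13, each with adjusted p = 0.9999. That Rps29 and Rps27 were called in cKO and not in wt cortex, where they changed by 0.21 ± 0.14 and 0.18 ± 0.10, therefore does not show that the genotypes differ.

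Among the paralog pairs, Rpl22l1, which can replace Rpl22 in the ribosome, was the only minor paralog with more TPM than its partner. The ratio of Rpl22l1 to Rpl22 in TPM was 1.33, 1.35 and 1.08 in cKO ipsilateral against 1.75, 1.65 and 1.75 in cKO contralateral libraries. The same ratio was 1.48, 1.30 and 1.22 in wt ipsilateral against 1.46, 1.41 and 1.44 in wt contralateral libraries. The cKO sides were apart and the wt sides overlapped, and cKO and wt contralateral libraries were also apart. In cKO cortex the exact permutation test (two-sided) returned p = 0.1, the smallest that 3 against 3 libraries allow, and 0.4 in wt cortex (adjusted p over 16 such tests 0.533 and 0.8). In CPM the ratio was 0.633 ± 0.026 in cKO ipsilateral and 0.659 ± 0.081 in cKO contralateral cortex (SD, n = 3 each), and the sides overlapped, so the gap in cKO cortex was in TPM and not in counts. In wt ipsilateral cortex the CPM ratio was 0.580 ± 0.012 (SD, n = 3), below every cKO ipsilateral library (exact permutation p = 0.1). The ratio was chosen after its values were seen. In TPM, Rps27l stood at 0.025 ± 0.004 of Rps27 in cKO ipsilateral and 0.023 ± 0.003 in cKO contralateral cortex, and Rpl7l1 at 0.057 ± 0.011 and 0.058 ± 0.007 of Rpl7 (SD, n = 3 each). Rps4l is annotated as a pseudogene and was no member.

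Members with and without a TOP tract near the annotated start had similar median changes. In cKO cortex the median was 0.20 for the 33 with and 0.19 for the 27 without the tract, and in wt cortex 0.10 and 0.09. With and without CCGGAAG it was 0.23 (24 members) and 0.18 (36 members) in cKO cortex, and 0.10 and 0.10 in wt cortex. Rps28 and Rpl41, printed above without a tract, were among the members with the largest changes in cKO cortex, as were Rps27 and Rpl38, printed with one. A member counted as without a tract lacks it at its first listed start, and other starts were not scored.

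The 3 larger classes of related genes tested, in turn other TOP mRNAs, mitochondrial ribosomal proteins and ribosome biogenesis factors, had medians nearer to 0 than the members or below 0. Over the 12 libraries, however, the mean log2 CPM of these classes correlated with the members' mean at 0.747, 0.486 and 0.682, in the same order. The 13 mitochondrially encoded mRNAs moved further than the members, with medians of 0.47 in cKO and 0.78 in wt cortex and all 13 above 0 in each. Of them, 3 rose in cKO (2.56% of all tested genes) and 10 in wt cortex (2.73%). The 20 other mRNAs known to carry a TOP tract, among them translation factors, had medians of 0.01 in cKO and −0.02 in wt cortex between sides, with 0 called by edgeR in either. Eef1a1, the elongation factor that delivers transfer RNA, gave 0.06 ± 0.06 in cKO cortex, and Pabpc1, the poly(A)-binding protein, 0.15 ± 0.06 (adjusted p = 0.268). The 78 mitochondrial ribosomal protein genes, with a median mRNA length of 1302 bases, had medians of −0.04 and −0.10 with 0 called in either genotype, 5 in each at an unadjusted p under 0.05. Of 34 ribosome biogenesis genes, Myc, which drives their transcription, rose in both: to 8.35 ± 1.10 CPM in cKO ipsilateral against 3.24 ± 0.332 CPM in cKO contralateral cortex (1.39 ± 0.21, adjusted p = 0.00105), and to 7.05 ± 1.77 CPM in wt ipsilateral against 3.39 ± 0.837 CPM in wt contralateral cortex (1.06 ± 0.21, adjusted p = 0.00934; SD, n = 3 each). The other 33 were not called. Of ribosomal proteins outside the symbols, Fau gave 0.24 ± 0.11 (adjusted p = 0.317) and Rpl36al 0.15 ± 0.13 in cKO cortex, and they gave 0.19 and −0.01 in wt cortex.

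**Figure D5:**
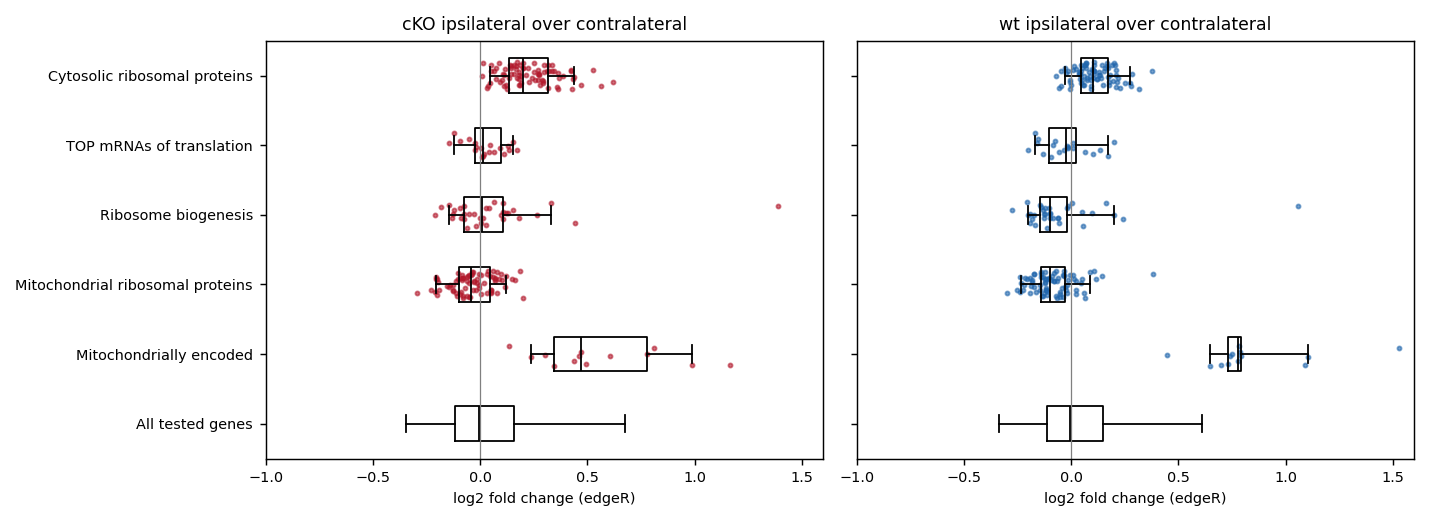
Log2 fold change between sides (edgeR) in cKO (left) and wt cortex (right) for 6 classes of genes; boxes span the quartiles with the median, whiskers the 5th to 95th percentile, and points are single genes except for all tested genes. The cytosolic ribosomal proteins have medians of 0.20 in cKO and 0.10 in wt cortex, while the mitochondrial ones lie at −0.04 and −0.10. The mitochondrially encoded genes lie at 0.47 and 0.78.

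Markers of other cells moved with the side of injury. All 5 erythroid markers rose in cKO cortex, with a summed level of 602 to 933 CPM in ipsilateral against 4.76 to 81.6 CPM in contralateral libraries, and 3 of 5 rose in wt cortex, with 597 to 2104 against 2.10 to 242 CPM. All 4 neutrophil markers rose in both genotypes, with 11.8 to 27.95 against 0.213 to 0.524 CPM in cKO and 4.75 to 16.4 against 0.225 to 0.587 CPM in wt cortex. Of 6 neuronal markers 1 fell in cKO cortex and 0 in wt, with summed levels of 6673 to 6826 CPM in cKO ipsilateral against 7554 to 7974 CPM in cKO contralateral, and 6979 to 7974 CPM in wt ipsilateral against 7717 to 8088 CPM in wt contralateral libraries. The summed levels of 5 astrocyte markers were 2016 to 2250 CPM in cKO ipsilateral against 1716 to 1925 CPM in cKO contralateral, and 1986 to 2226 CPM in wt ipsilateral against 1818 to 1841 CPM in wt contralateral libraries; none was called, and their median changes were 0.21 in cKO and 0.24 in wt cortex, as large as or larger than those of the members. Of 4 endothelial markers Flt1 rose in both genotypes, by 0.49 ± 0.10 in cKO (adjusted p = 0.0102) and 0.39 ± 0.10 in wt cortex (adjusted p = 0.0413). Their sums were 164.6 to 185.1 CPM in cKO ipsilateral against 135.0 to 142.2 CPM in cKO contralateral, and 154.4 to 207.2 CPM in wt ipsilateral against 136.8 to 158.4 CPM in wt contralateral libraries. Of 5 microglial markers Tmem119 fell in both, by 0.69 in cKO (adjusted p = 0.00797) and 0.71 in wt cortex (adjusted p = 0.00564), while their sums overlapped between sides, at 232.1 to 293.2 against 264.1 to 277.1 CPM in cKO and 254.1 to 310.3 against 279.6 to 283.8 CPM in wt cortex. Of 3 meningeal markers Slc6a13 fell in wt cortex, by 0.70 (adjusted p = 0.0489), and none was called in cKO cortex. The lists for oligodendrocytes and their precursors, mural cells, choroid plexus and striatum had no called gene in either genotype. None of these markers was at 0 in every library, and 3 of the 4 neutrophil and 1 of the 3 choroid plexus markers were at 0 in at least 1. Their part in the changes of the ribosomal protein genes was not tested.

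Counts of ribosomal protein genes carry their own uncertainty, because processed pseudogenes copy their mRNAs closely. Counted by symbol, 301 rows were annotated as ribosomal protein pseudogenes, and 60 members have at least 1 under their own symbol followed by -ps. Copies under other kinds of symbol were not sought. Those annotated as protein-coding, such as Rps12-ps3 at 47.3 TPM, were not counted. The 301 rows took 0.103 to 0.141% of TPM in a library, a small part of the members' share. Summed by the member they are named after, the -ps rows were largest, relative to that member, for Rpl36a, with 97.3 TPM beside 261.8 TPM of its own. Rps23, with 109.3 beside 476.7 TPM, and Rpl31, with 131.0 beside 687.0 TPM, followed. Rpl37rt, a transcribed processed pseudogene without -ps in its symbol, had 134.3 TPM beside 414.8 TPM of Rpl37. Rpl37 and Rpl36a are among the larger changes given above and are uncertain for that reason. Rps29 and Rps27 each have 1 -ps row, both at 0 TPM, while Rps27rt, an intronless copy of Rps27 with a row of its own, had 53.7 TPM. In all, 23 of the 80 members, with and without pseudogenes, overlap a gene on the opposite strand, among them Rps28, Rps2, Rpl3 and Rpl22l1, and whether the counting used strand is not given in the sources used here.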

How the data were processed

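Bulk RNA-seq libraries were made with a stranded mRNA kit, per the labels' protocols. Per the submitters' processing notes, the authors used Trim Galore 0.6.4, STAR 2.7.1a, RSEM 1.2.28 and DESeq2 1.36.0 with mm10. The deposited tables hold RSEM estimated counts, as whole numbers, and the authors' TPM. The annotation and strand setting are not given in the sources used here.

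Gene identifiers were matched to GENCODE M21 (55227 of 55487, 99.5%), from which transcript lengths come. Fits ran in R 4.3.3 with DESeq2 1.42.0, limma 3.58.1 and edgeR 4.0.16. The filterByExpr function, at a minimum total of 15 and a minimum count of 10, removed 38651 genes, and 16836 were tested. Counts were scaled by the trimmed mean of M values (TMM), and the 4 groups of 3 libraries were fitted jointly by quasi-likelihood in edgeR, and p-values were adjusted by Benjamini-Hochberg, with a threshold of 0.05. TPM was compared as log2(TPM + 1), which understates changes of low genes. Paralog ratios had exact permutation tests. The code was tested on simulated counts.

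The members, gene lists and rules were chosen with earlier results of these data known. Named genes were, per comparison, the called members or else the 3 highest and 3 lowest changes, the 5 highest and 5 lowest levels, the 4 most and 4 least variable, the P-stalk, Rpsa, Rps27a and paralog pairs, and called or leading genes of related lists; members printed beyond these were picked after their values were seen. Alternatives were other scalings, filters, tests and units, GC and length trends removed (span 0.3), each library left out, replicate blocks and fits of the 2 compared groups. The smallest count of a member in a library was 58. A related gene outside the members is not reported here.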

Additional observations from a re-analysis of the deposited data

How the results depend on the processing

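Rps27 and Rps29 were higher on the injured side of cKO cortex under every alternative run, at 0.19 to 0.54 and 0.38 to 0.74 (log2), and the number of members called moved with the settings. In cKO cortex 31 members were called without the filter on low counts, 17 with the 2 compared groups only and 9 with DESeq2. With GC and length trends removed 6 were called, and 8 with the replicate block added, where 676 of 16836 tested genes rose. With limma on log2(TPM + 1), on log2(TPM + 0.1) or without a filter 0 were called. Leaving out 1 library gave 0 to 10. The highest, 10, came without library 3 of wt contralateral cortex, where 521 of 17148 tested genes rose. Without library 1 of wt ipsilateral cortex 4 were called, where 433 of 17222 tested genes rose. Without cKO ipsilateral library 2 or 3 or cKO contralateral library 1 or 2, 0 were left. In wt cortex 5 were called without the filter, 2 with DESeq2 and 3 with GC and length trends removed. With the block added it was also 3, where 728 of 16836 tested genes rose. The median of wt cortex was −0.105 on each TPM scale. The cause of these moves was not tested. No member was called in the genotype comparisons or in the difference of responses under any alternative, and no called change reversed.

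As shares of counts the members took 1.5% in cKO ipsilateral, 1.32% in cKO contralateral, 1.33% in wt ipsilateral and 1.29% in wt contralateral cortex, and as TPM without mitochondrially encoded genes and Bc1 6.27, 5.69, 5.68 and 5.58%. Leaving out cKO ipsilateral library 3 and wt contralateral library 3 together was chosen after seeing the data. It kept 2 calls in cKO cortex, where 522 of 17047 tested genes rose, and gave a wt median of 0.01. A minimum of 1 TPM gives the same 80 members, and a minimum of 100 TPM drops only Rpl7l1 and Rps27l, neither of them called. The 2 calls in cKO cortex and 0 in wt could therefore not change with these minimums.

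Nothing in the labels ties equal replicate numbers to 1 animal. After removal of group means, sides of equal number correlated at 0.071, 0.092 and 0.057 in cKO and −0.002, 0.094 and 0.046 in wt cortex over all tested genes. Over 11538 genes of at least 5 CPM the values were 0.222, 0.306 and 0.230 in cKO and −0.255, 0.396 and 0.018 in wt cortex. The cKO values were thus above 0 in both sets of genes, with a size that depends on the genes used, and the wt values differed in sign. Over the same 11538 genes, cKO and wt libraries of equal number gave 0.065, 0.041 and 0.160 ipsilateral and −0.192, −0.213 and −0.265 contralateral. Whether equal numbers mark 1 animal is not settled by these values. The replicate block left 2 calls in cKO cortex, where 454 of 16836 tested genes rose, and 0 in wt. The block within genotype left 3 in cKO cortex, where 490 of 16836 tested genes rose, and 0 in wt.

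Each group holds 3 libraries, and 1 library is shallow. TPM and counts treat short mRNAs differently, and the size of a change of members under 500 bases depends on the unit.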
